A study of Mus musculus with 2 samples.

Results

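The natural killer (NK) cells of the mouse brain were described in single-cell RNA-seq of sorted CD45+ cells, the immune cells of a brain cell suspension. They were taken as the cells with at least 500 gene UMIs (unique molecular identifiers, each standing for 1 captured transcript), at least 2 UMIs in sum of the NK genes Ncr1, Klrb1c, Klre1 and Prf1, at most 1 UMI in sum of Cd3d, Cd3e and Cd3g, and at most 1 UMI of Cd79a and Cd79b. The rule found 83 NK cells among 19864 cells. They were compared with 213 Cd3-positive cells (at least 2 Cd3 UMIs, called T cells below) and with the 19568 other cells, most of which carried microglia transcripts. The cells were chosen by the UMIs of 9 genes (4 NK, 3 Cd3 and 2 Cd79 genes), so the levels of these genes are a description and were left out of every count of genes.

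The mice were littermates aged 12 weeks, from a floxed Arpc4 line kept on C57BL/6J. The 4 Arpc4dCx3cr1 mice carried the Tg(Cx3cr1-Cre) transgene on 1 allele together with Arpc4 fl/fl, and the 4 control mice were Arpc4 fl/fl without Cre, so both groups carried the floxed Arpc4 alleles. Arpc4 encodes a subunit of the Arp2/3 complex, which nucleates branched actin. Cre was driven by Cx3cr1, a gene of microglia and brain macrophages that part of the NK cells also use, and whether Arpc4 was deleted in the NK cells was not given. Each mouse was marked with its own multiplexing tag and all were sequenced in 1 pooled library, with no barcode shared between mice. The 8 mice held 6, 6, 12 and 8 NK cells in control mice 1 to 4, and 8, 13, 15 and 15 in Arpc4dCx3cr1 mice 1 to 4. The NK sums per mouse ran from 36523 to 91149 UMIs, and the NK, T and other cells had medians of 4885, 4718 and 3901 UMIs per cell. The study's methods name 1 female among the Arpc4dCx3cr1 mice without saying which. Xist in other cells was 1289 CPM (counts scaled to equal depth) in Arpc4dCx3cr1 mouse 1 and at most 13.1 CPM in the other 7 mice, so results are also given without that mouse where it changed them.

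NK cells are innate lymphocytes that kill infected or transformed cells without a rearranged antigen receptor. They release perforin and granzymes, read stress ligands through activating receptors such as NKp46 (Ncr1) and NKG2D (Klrk1), and are held back by receptors for MHC class I, among them CD94-NKG2 and part of the Ly49 family (Klra genes). In the mouse, Klrb1, Klrd1, Klre1, Klrk1 and the Ly49 genes lie together in the NK gene complex, which spanned chromosome 6, 128609227 to 131247362, in the mm10 annotation for the Klr genes measured here. Few NK cells are found in the healthy brain, where they are counted among the immune cells of its borders, together with the related type 1 innate lymphoid cells (ILC1).

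The promoters of Ncr1, Prf1 and Gzma are shown because these genes define the cells and their granules. Each runs from 250 bases before to 50 bases after a RefSeq start site (GRCm38.p6), 5′ to 3′ on the strand of the gene, and capitals mark the letters TGTGGT or their reverse ACCACA, the core that Runx factors bind.
Ncr1, chr7:4337465-4337764, plus strand: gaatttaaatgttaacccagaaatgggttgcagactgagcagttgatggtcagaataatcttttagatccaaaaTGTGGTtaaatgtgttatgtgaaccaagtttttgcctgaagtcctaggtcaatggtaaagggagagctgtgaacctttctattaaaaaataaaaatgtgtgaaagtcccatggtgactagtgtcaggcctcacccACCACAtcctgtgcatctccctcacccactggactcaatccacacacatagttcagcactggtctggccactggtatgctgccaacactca
Prf1, chr10:61297586-61297885, plus strand: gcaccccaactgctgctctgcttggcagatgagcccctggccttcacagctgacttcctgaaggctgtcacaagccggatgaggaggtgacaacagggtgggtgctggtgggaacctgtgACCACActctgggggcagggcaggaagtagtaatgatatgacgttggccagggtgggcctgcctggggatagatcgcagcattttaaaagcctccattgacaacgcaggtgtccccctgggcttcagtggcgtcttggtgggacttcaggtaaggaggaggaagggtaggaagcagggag
Gzma, chr13:113100932-113101231, minus strand: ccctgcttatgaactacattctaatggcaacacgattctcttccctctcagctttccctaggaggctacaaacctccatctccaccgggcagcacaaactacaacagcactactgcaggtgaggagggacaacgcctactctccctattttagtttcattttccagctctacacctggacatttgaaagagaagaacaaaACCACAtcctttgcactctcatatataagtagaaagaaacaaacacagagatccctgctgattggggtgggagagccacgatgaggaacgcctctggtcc
These letters, read on both strands, were present at 5 of the 5 genes Ncr1, Klrb1c, Klre1, Prf1 and Gzma, although 1 of the 2 listed starts of Klre1 lacked them. They were present at 18.9% of 27025 genes with a promoter, at 22.2% of 27 genes higher in NK than in T cells and at 17.6% of 652 genes higher in NK than in other cells. The T-box letters GGTGTGA were found at 0 of the 5 genes and at 4.60% of all genes, and the Ets letters GGAAGT at 2 of the 5 and at 26.5% of all. The motifs were chosen with the expression results known, and a match is a string of letters and not a measured site.

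The markers were read next, to see how far the label holds. Among the 83 cells, a Klrb1c UMI was found in 79, an Ncr1 UMI in 66, a Klre1 UMI in 61 and a Prf1 UMI in 38. Outside the rule, Klrd1 (CD94) was detected in 68 cells, Ccl5 in 67, Nkg7 in 66, Klrk1 in 60, and Gzma, the tryptase-type granzyme among the markers, in 40. The median cell had 10 NK-gene UMIs, and the range was 2 to 35. No Cd3 UMI was found in 81 of the 83 cells.

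The label did not hold for every member. In 13 cells the rule was met by 1 gene alone, and 12 of these had 2 Klrb1c UMIs and none of the other 3. Gzma, Nkg7 and Ccl5 each had 0 UMIs in all 13, whereas among the 70 cells with at least 2 of the 4 genes they were detected in 40, 66 and 67. The 13 cells carried a median of 6.22% of their UMIs from 16 microglia markers, against 0.530% in the 70 cells and 7.36% in the other cells. The remaining cell with 1 gene had 2 Klre1 UMIs together with 279 UMIs of Cd74 and 21 of Cd209a, an antigen presentation gene and a dendritic cell gene. Of the 13 cells, 1 came from a control mouse and 12 from Arpc4dCx3cr1 mice. They are called single-gene cells below.

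Microglia transcripts were also found in cells with many NK UMIs. With a limit of 1.84% of UMIs, which is the median of the other cells divided by 4, 43 NK cells were low and 40 were high in microglia transcripts. The high cells had a median of 7950 UMIs and the low cells 3421. Among the 70 cells with at least 2 NK genes, 42 were low (15 from control and 27 from Arpc4dCx3cr1 mice) and 28 were high. In 28 of the 83 cells, under 50% of the tag UMIs came from the tag of the assigned mouse. The median share of that tag was 50.9% in the low cells and 83.2% in the high cells. The mouse given to a low cell thus rests on a smaller share of its tag UMIs. No doublet caller was run, and whether the high cells hold microglia RNA from free RNA or from a 2nd cell in the droplet was not tested.

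**Figure D1:**
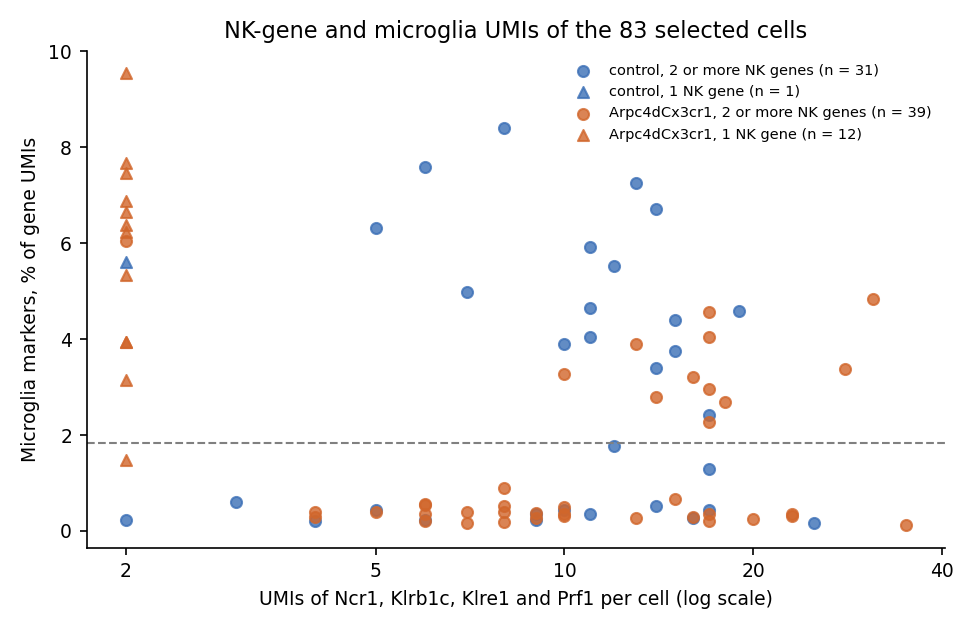
Each point is 1 of the 83 NK cells, with the UMIs of Ncr1, Klrb1c, Klre1 and Prf1 on a log x axis and the percent of gene UMIs from 16 microglia markers on the y axis. Colour gives the genotype, triangles the 13 single-gene cells, and the dashed line the limit of 1.84%; the single-gene cells all stand at 2 NK UMIs, and 12 of them lie above the line.

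At the edge of the rule, 15 members had 2 NK UMIs and 1 had 3. Just outside stood 160 cells with 1 NK UMI, 117 of them with Klrb1c, of which 0 had Gzma, 1 had Nkg7 and 5 had Ccl5. A further 30 cells had at least 2 NK UMIs and at least 2 Cd3 UMIs, and all 30 had Nkg7 and 9 had Gzma. A single cell with 12 NK UMIs was left out for its Cd79 UMIs.

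Marker lists of other cell types were summed in the NK cells. All 18 T cell markers together (without Cd3) made 360.2 to 809.7 CPM in the NK cells of the 8 mice, against 3324 to 5397 CPM in T cells, and 7 of the 18 were at 0, among them Cd4, Cd8a, Cd8b1 and Themis. The 10 markers of ILC2 and ILC3 gave 0 to 80.0 CPM with 7 at 0, including Il5 and Il13. The 10 B cell markers gave 219 to 4061 CPM, with Ms4a1, Pax5 and Fcmr among those at 0. This range reached above the 1039 to 2966 CPM of other cells in Arpc4dCx3cr1 mice. Of these markers, Cd74 had 220 UMIs in 1 single-gene cell of Arpc4dCx3cr1 mouse 1 and 279 in 1 of mouse 3. Over all 83 cells Cd74 was 1327 CPM, and in the 70 cells with at least 2 NK genes 294 CPM. The 16 microglia markers gave 29105 to 49607 CPM in control and 25891 to 31981 CPM in Arpc4dCx3cr1 NK cells, and none was at 0. In other cells the same list gave 88759 to 94747 CPM in control and 51947 to 65932 CPM in Arpc4dCx3cr1 mice.

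The share of NK cells was compared between the genotypes. NK cells made up 0.477%, 0.212%, 0.444% and 0.302% of the cells in control mice 1 to 4, and 0.304%, 0.511%, 0.555% and 0.590% in Arpc4dCx3cr1 mice 1 to 4. The means were 0.359% ± 0.124 and 0.490% ± 0.128 (SD, n = 4 mice each), and the groups overlapped (p = 0.171 in a two-sided exact permutation test, and 0.343 after adjustment over both shares). Of NK and T cells together, NK cells were 27.9% ± 6.69 in control and 31.3% ± 13.8 in Arpc4dCx3cr1 mice (n = 4 each, exact permutation p = 0.743), and the difference of 3.41 points turned to -2.20 without Arpc4dCx3cr1 mouse 2 and was 8.72 without Arpc4dCx3cr1 mouse 1 (exact permutation p = 0.343, n = 4 and 3). With 6 to 15 NK cells per mouse, the binomial intervals of single mice reach from 0.175% to 1.04% in control mouse 1 and from 0.331% to 0.971% in Arpc4dCx3cr1 mouse 4 (95%, Clopper-Pearson), which cover counting error only.

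Without the single-gene cells the means came to 0.349% and 0.375% of all cells (exact permutation p = 0.943, n = 4 each). Against 0.131 percentage points under the rule as given, the difference was then 0.0258 percentage points. Without Arpc4dCx3cr1 mouse 1 the difference under the rule as given was 0.193 percentage points (exact permutation p = 0.0571, n = 4 and 3). The groups then did not overlap (0.212% to 0.477% and 0.511% to 0.590%). That p is the smallest this test can give with 4 and 3 mice, so it could not pass the threshold. With at least 2 NK genes, control mouse 1 (0.477%) stood above Arpc4dCx3cr1 mice 2 to 4 (0.433% to 0.472%).

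Klrb1c UMIs outside the NK and T cells were also more frequent in Arpc4dCx3cr1 mice. Among other cells with no Cd3 UMI and no UMI of Ncr1, Klre1 or Prf1, Klrb1c was detected in 3, 0, 2 and 0 cells of control mice 1 to 4 and in 14, 27, 44 and 29 cells of Arpc4dCx3cr1 mice 1 to 4. Each had a single UMI, because the rule took cells with 2 as NK cells. These are 0.0798% ± 0.115 and 1.12% ± 0.462 of such cells (SD, n = 4 each), and the groups did not overlap. After each cell was thinned to 1000 UMIs, 2 control cells and 22 Arpc4dCx3cr1 cells remained positive. The rule itself used Klrb1c and removed the cells with more UMIs, and the comparison was chosen after the values were seen, so it is a description with no test. Of the 12 members with 2 Klrb1c UMIs alone, 11 came from Arpc4dCx3cr1 mice. Both sets of cells are defined by Klrb1c, and whether they are the same kind of cell was not tested. The neighbouring Klrb1b, an inhibitory receptor gene, was 1.27 to 4.28 CPM in other cells of control mice and 18.3 to 39.9 CPM in those of Arpc4dCx3cr1 mice (log2 fold change 3.51, SE 0.37, edgeR adjusted p = 7.13e-05). Klrb1 genes resemble each other and Klrb1c overlaps the annotated gene Gm44511 on the same strand, so how reads were split between them was not tested.

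**Figure D2:**
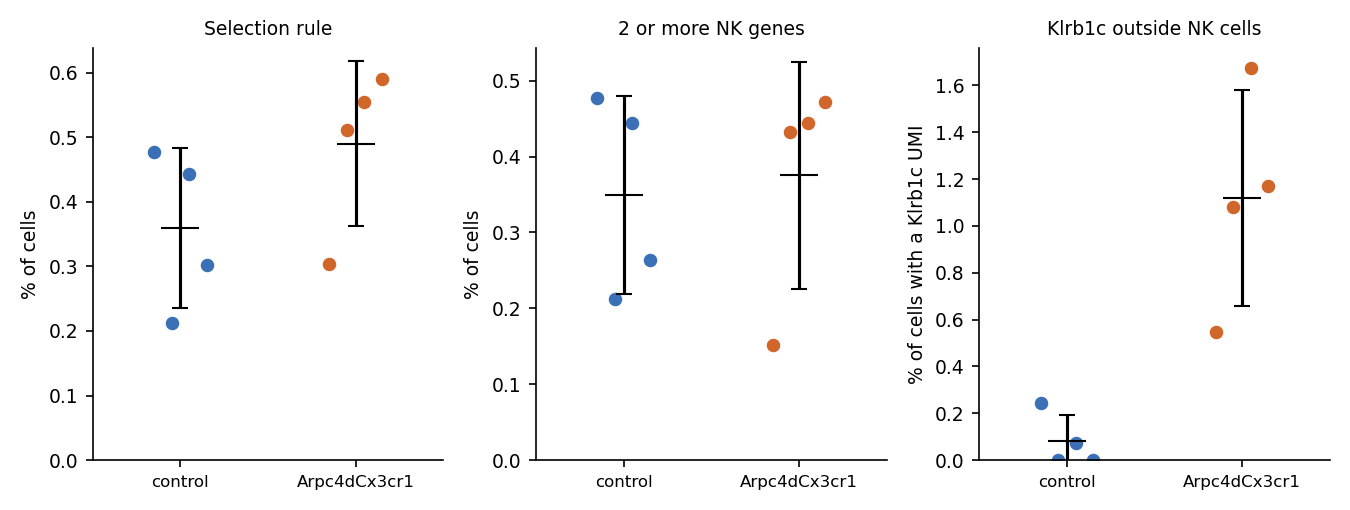
Points are the 8 mice, bars the mean ± SD of 4 mice (cut at 0 for control in the right panel), and the y axes give NK cells as percent of cells under the rule, NK cells with at least 2 of the 4 NK genes as percent of cells, and the percent of cells outside the NK and T classes that held a Klrb1c UMI. The groups overlap in the left and middle panels and not in the right panel, where control mice reach 0.244% and Arpc4dCx3cr1 mice start at 0.548%.

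NK cells were then set against brain T cells, with UMIs summed over the cells of each class in each mouse and genotype as covariate in edgeR (quasi-likelihood test, Benjamini-Hochberg adjustment). Of 1367 genes tested, 85 passed (6.22%), 37 higher (2.71%) and 48 lower (3.51%) in NK cells, and the median log2 difference of all genes was 0.03. In 19 genes the mice of the classes did not overlap in CPM (1.39%), and all 19 passed. Counts of 50 to 55 were obtained without control mouse 2, control mouse 4, Arpc4dCx3cr1 mouse 3 or Arpc4dCx3cr1 mouse 4. Both classes were drawn from the same cells by expression, so genes tied to the NK or Cd3 genes were bound to differ. Where NK and T cells were both limited to those low in microglia transcripts, 39 of 286 genes passed.

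Granule genes differed unequally from T cells. Gzma stood at 3162, 2327, 1467 and 2896 CPM in NK cells of control mice 1 to 4 and at 3269, 1509, 6464 and 3291 CPM in those of Arpc4dCx3cr1 mice 1 to 4. In T cells Gzma reached 0, 57.7, 649.7 and 0 CPM in control and 344, 1050.2, 0 and 34.1 CPM in Arpc4dCx3cr1 mice. Every NK value lay above every T value, and the log2 fold change was 3.55 (SE 0.59, edgeR adjusted p = 0.000199). Granzyme B, Gzmb, did not pass, at 165 to 664 CPM in NK and 75.0 to 589 CPM in T cells (log2 0.77, SE 0.37, adjusted p = 0.239). Nkg7, a granule membrane gene, and Ccl5, a chemokine, did not pass either, with 1329 against 934 CPM for Nkg7 and 4834 against 3324 CPM for Ccl5 over all NK and T cells. Gzma was thus the only 1 of 8 tested members of the granule list past the threshold, and the list had a median of 0.52. This depended on the cells and mice used. Without control mouse 3, whose T cells held the 589 CPM, Gzmb passed (log2 1.28, edgeR adjusted p = 0.014). Gzmb also passed against T cells with at most 1 NK-gene UMI (log2 2.16, edgeR adjusted p = 0.00095). That limit took out the 30 T cells with at least 2 UMIs of the rule's NK genes, of which 30 had Nkg7 and 9 Gzma. A larger difference was therefore built into it. Without NK cells high in microglia transcripts, the log2 fold changes were 1.58 for Gzmb, 1.14 for Nkg7, 1.17 for Ccl5 and 1.57 for Ctsw (cathepsin W). These NK sums came from the 4 mice (1 control) that kept enough cells. The T cells were not limited there, so larger differences were built into this as well. Over the cells of both classes low in microglia transcripts, Nkg7 was 2327 against 1410 CPM and Ccl5 8662 against 5049.5 CPM.

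NK receptors and their adaptors were higher in NK cells. Klrk1 was 363 to 735 CPM in NK and 45.7 to 190.4 CPM in T cells (log2 2.11, SE 0.24, edgeR adjusted p = 5.17e-07). Klrd1 was 512 to 1251 CPM in NK and 33.5 to 375 CPM in T cells (log2 1.86, SE 0.27). Neither gene overlapped between the classes in any mouse. Tyrobp (DAP12) and Fcer1g, the adaptors that carry the signal of activating receptors, were 1.24 (SE 0.14) and 1.23 (SE 0.14) higher on the log2 scale, with 2383 to 4114 CPM of Tyrobp in NK cells. Both adaptors are also microglia genes, at 2656 to 4396 CPM of Tyrobp in other cells, and in cells low in microglia transcripts their log2 differences were 2.33 and 2.03. Slamf7 lost its call without control mouse 2, 3 or 4 or Arpc4dCx3cr1 mouse 2 (adjusted p up to 0.0949). Of the 8 activating genes tested, 4 were higher (Klrk1, Tyrobp, Fcer1g, Slamf7) and Cd226 lower. Cd226 stood at 0.081 without NK cells high in microglia transcripts, where the T cells were not limited.

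Il2rb, the receptor chain for IL-2 and IL-15, was 116 to 497 CPM in NK and 56.9 to 208 CPM in T cells (log2 1.53, SE 0.26, edgeR adjusted p = 0.000253). Cd7 was 1.69 (SE 0.31) and Xcl1, a chemokine for cross-presenting dendritic cells, 1.44 (SE 0.40) higher on the log2 scale. Xcl1 varied widely between mice, from 138 to 1619 CPM in NK cells, and did not pass without control mouse 2, 3 or 4 or Arpc4dCx3cr1 mouse 2 (adjusted p up to 0.078). The interleukin-7 receptor Il7r and the chemokine receptor Cxcr6 went the other way, with 67.3 against 452 CPM of Il7r and 79.2 against 516 CPM of Cxcr6 over all NK and T cells (log2 -2.62, SE 0.39, and -2.76, SE 0.32). Of 6 tested ILC1 markers, Cxcr6 and Il7r were lower and none higher. Of 5 tested genes of the immature NK stage, Cd7 and Xcl1 were higher and Il7r lower, and of 7 of the mature stage, Gzma, Irf8 and Zeb2 were higher. Zeb2 turned to -1.22 without NK cells high in microglia transcripts, but the T cells were not limited there. Irf8 did not pass without Arpc4dCx3cr1 mouse 1, 3 or 4, nor Zeb2 without control mouse 1, 2 or 4 or Arpc4dCx3cr1 mouse 4 (adjusted p up to 0.142 and 0.0953).

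Of 18 T cell markers 7 were tested, and all 7 were lower in NK cells, which were chosen for few Cd3 UMIs. Markers nearly absent from NK cells, such as Cd8a, Themis and Trac, passed the filter on low counts only through the T cells. For such genes the direction was set by that filter, and their being lower in NK cells is a description. Trac had 2 UMIs in NK and 364 UMIs in T cells, and Trbc2 164 against 995 CPM (log2 -2.61, SE 0.21). Trbc1 stood at log2 -1.20 (SE 0.28), and did not pass with at least 2 NK genes (adjusted p = 0.0534). The coreceptor genes Cd8a and Cd8b1 had 0 UMIs in NK cells, and with 3 counts over all NK cells as the floor (5.94 CPM) T cells were at least 37.9-fold and at least 62.1-fold higher. Themis, a T cell signalling gene, was at least 41.6-fold higher. The interferon-stimulated gene Isg15 was lower in NK cells (log2 -1.95, SE 0.49). Without control mouse 3 the adjusted p of Isg15 was 0.0529. Ly6a, an antigen of activated T cells, stood at log2 -4.38 (SE 0.35) and Lat, the T cell receptor adaptor, at log2 -2.80 (SE 0.32).

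Among the 8 tested Arp2/3 subunits, Arpc1b was higher in NK than in T cells, at 449.8 to 776 CPM against 339.7 to 553 CPM (log2 0.54, SE 0.15, edgeR adjusted p = 0.0248). Arpc1b did not pass without control mouse 2 or 4 or Arpc4dCx3cr1 mouse 1 or 3 (adjusted p up to 0.142). Arpc3 passed as well in cells low in microglia transcripts. Of 20 tested actin regulators 0 passed by edgeR and 0 by DESeq2, with 1, Msn, at an unadjusted p under 0.05. None of the 16 microglia markers passed between NK and T cells by edgeR or DESeq2, with 2 of them (C1qa, Csf1r) at an unadjusted p under 0.05, so both classes carried microglia transcripts at levels that this test did not separate.

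**Figure D3:**
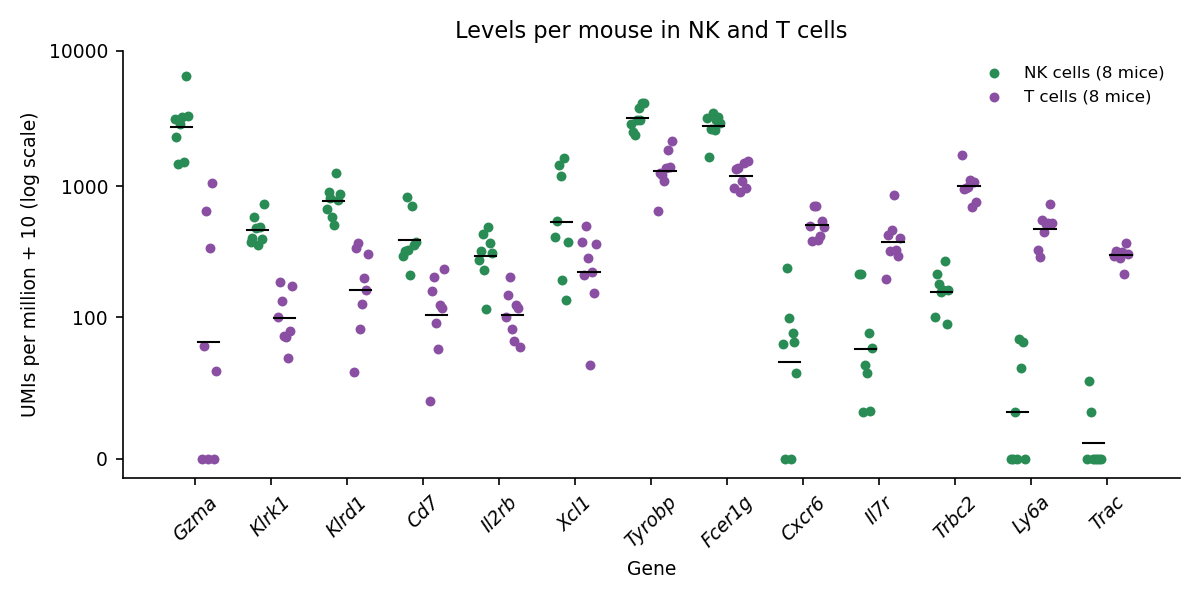
Each point is 1 mouse, the y axis is CPM + 10 on a log scale with ticks at the value before 10 was added, and short lines are means on that scale, for NK cells and T cells. Gzma, Klrk1 and Klrd1 do not overlap between the classes, and neither do Cxcr6 and Trbc2 on the side of the T cells.

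The Ly49 genes Klra8, Klra9, Klra3 and Klra4 were detected in a larger share of NK than of T cells but were too low for the test against T cells. Klra8 (Ly49H, an activating receptor) was detected in 29 of 83 NK cells (34.9%), 2 of 213 T cells and 2 of 19568 other cells. The 95% interval of 24.8% to 46.2% takes the cells of 8 mice together and covers counting error only. Klra9, Klra3 and Klra4 were found in 33.7%, 28.9% and 26.5% of NK cells and in 3.76%, 1.88% and 1.88% of T cells. Klra8 in NK cells ranged from 39.4 to 767 CPM among mice. After thinning to 1000 UMIs, 21.7% of NK and 0.939% of T cells held a Klra8 UMI. In the 70 cells with at least 2 NK genes, 22 had no Ly49 gene detected and 39 had 2 or more. Klra2 had 0 UMIs in NK cells. The Ly49 genes are near-identical neighbours, so reads of 1 gene may have been counted for another, which was not tested. Klra7, the 1 member tested, was 1.46 (SE 0.47) higher on the log2 scale in NK than in T cells, with an edgeR adjusted p of 0.0607. It passed with the mouse as a block (log2 1.56, edgeR adjusted p = 0.023).

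The lineage factors were scarce. Eomes was found in 18 NK cells (21.7%) and Tbx21 in 26 (31.3%), against 9.39% and 10.3% of T cells. Their levels were 49.5 and 83.2 CPM over all NK cells and 21.9 and 22.8 CPM over all T cells. Both were too low for the test, and after thinning the shares of Eomes were 2.41% and 2.35%.

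Against the other cells, NK cells differed in far more genes. Of 10450 genes tested, 2536 passed (24.3%), 832 higher (7.96%) and 1704 lower (16.3%), with a median log2 difference of -0.31 over all genes. With size factors from relative log expression (RLE) the split was 1007 higher and 1131 lower and the median -0.16, and with DESeq2 it was 1175 higher and 1013 lower, so small differences, and which direction held more genes, depend on the scaling. In 672 genes the mice did not overlap in CPM (6.43%), and 626 of these passed (5.99%). Genes nearly absent from other cells, such as Klra8 or Gzma, could be tested only where their NK sums passed the filter on low counts. For such genes the direction was set by that filter, and their being higher in NK cells is a description. Of 14 granule genes 9 were higher, among them Gzma (log2 11.74, SE 0.45), Gzmb (11.23, SE 0.38), Fasl (10.46, SE 0.48) and Nkg7 (8.91, SE 0.39), and Lamp1 was lower. Gzma was 0.238 to 3.43 CPM in other cells, below the 26.0 CPM of droplets with at most 100 UMIs, and 0.174% of other cells held a Gzma UMI against 48.2% of NK cells.

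Of 16 transcription factors tested against other cells, 10 were higher in NK cells, including Tbx21 (log2 9.40, SE 0.54) and Stat4 (6.55, SE 0.33), and Zeb2 and Irf8 were lower. Of 9 cytokine genes 6 were higher, led by Xcl1 (11.99, SE 0.52) and Ccl5 (7.07, SE 0.41). Trafficking genes split into 8 higher, such as Itga2 (8.16, SE 0.57), and 3 lower, Cx3cr1, Itgam and Selplg. All 16 microglia markers were lower. In the NK gene complex, 20 of 51 genes were tested, and 13 of them were higher and 2 lower. The cells were chosen by Klrb1c and Klre1 of this complex, so genes tied to these were bound to be higher. The limit set by the filter on low counts holds here too.

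Actin genes separated NK cells from other cells in both directions. Of 9 Arp2/3 subunits, Arpc5 (log2 0.58, SE 0.16), Arpc1b (0.56, SE 0.12), Arpc3 (0.51, SE 0.11) and Actr3 (0.45, SE 0.14) were higher, and Arpc5 did not pass without Arpc4dCx3cr1 mouse 3, nor Actr3 without control mouse 1 or 3 (adjusted p 0.0539, 0.0845 and 0.134). Actr3 turned to -0.18 without NK cells high in microglia transcripts. Of 26 actin regulators, 10 were higher, among them Coro1a (0.73, SE 0.15) and Actb (0.40, SE 0.14), and 7 lower, among them Nckap1l, Vav1 and Dock8. All of these values are on the log2 scale and were tested with edgeR. Actb did not pass without control mouse 1, control mouse 3 or any 1 of the Arpc4dCx3cr1 mice (adjusted p up to 0.169).

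NK cells were not alike. Split by Gzma, 33 of the 70 cells with at least 2 NK genes had 10 or more Gzma UMIs, 7 had 1 to 9 and 30 had 0, at similar medians of 4494 UMIs per cell for the highest and 4720.5 for the lowest group. Cells with 10 or more came from all 8 mice (14 from control and 19 from Arpc4dCx3cr1) and cells with 0 from 7 mice (16 and 14). The split was chosen after the data were seen, cells of a mouse are not replicates, and what follows is a description with no test.

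Cells with many Gzma UMIs also held some other granule and lymphocyte genes. Perforin, Prf1, was detected in 28 of 33 cells with high Gzma and in 7 of 30 with none, Gzmb in 26 and 6 and Nkg7 in 33 and 26. Not every granule gene followed, with Gzmc in 4 of 33 and 7 of 30 and Ctsw in 26 and 27. Klf2, a factor of circulating lymphocytes, was found in 22 and 4, the integrin Itga2 (CD49b) in 17 and 1, and Klra8 in 21 and 6. Klrd1 was common in both groups (33 of 33 and 26 of 30), and so was Ncr1 (32 of 33 and 28 of 30). Ncr1 and Prf1 are genes of the rule, so their presence partly reflects how the cells were chosen. Whether the cells with no Gzma are NK cells or ILC1 was not tested.

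Cells with no Gzma had other genes more often. Ltb, lymphotoxin beta, was detected in 29 of 30 of them and in 11 of 33 with high Gzma, Xcl1 in 26 and 14, Tnfsf10 (TRAIL) in 15 and 4 and Il7r in 11 and 3. The integrin Itga1 (CD49a) was found in 16 and 2, Cxcr6 in 14 and 0 and Cd200r1 in 12 and 0. Itga1, Cxcr6, Il7r, Tnfsf10 and Cd200r1 are known from ILC1. Itga1 without Itga2 was seen in 19 cells, 15 of them with no Gzma, and Itga2 without Itga1 in 17 cells, 16 of them with high Gzma, whereas 2 cells had both and 32 neither. Eomes was in 7 cells of each group and Tbx21 in 11 of 30 and 10 of 33, so neither factor told them apart at this depth.

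**Figure D4:**
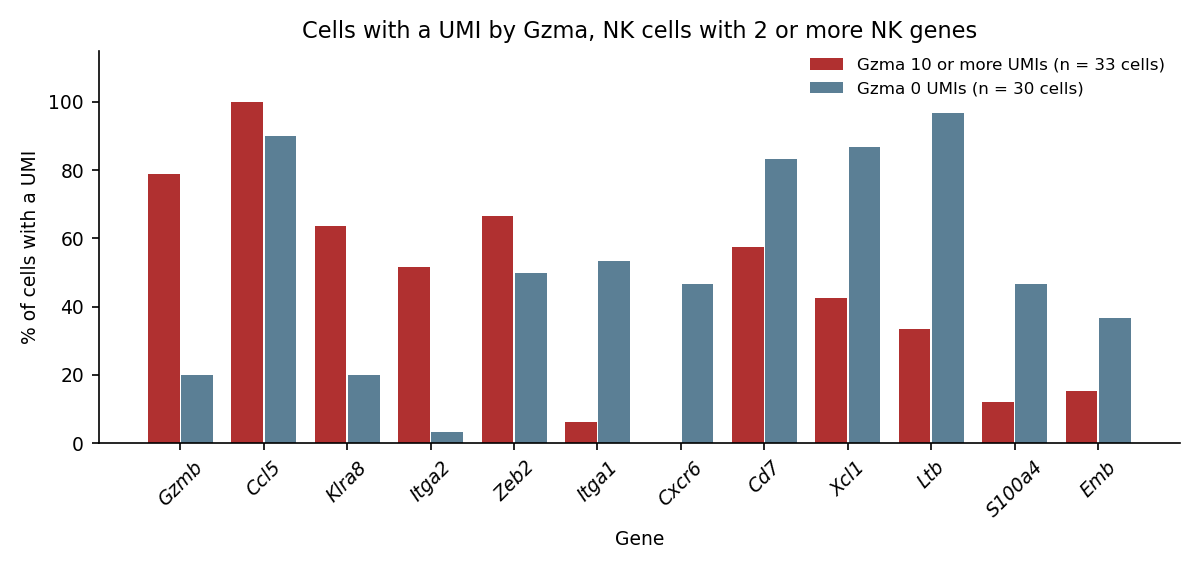
Bars start at 0 and give the percent of cells with at least 1 UMI of each gene, among the 33 NK cells with 10 or more Gzma UMIs and the 30 with 0. Gzmb, Klra8 and Itga2 are taller in the first set, and Itga1, Cxcr6, Xcl1 and Ltb in the second.

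The targeted gene was read in every mouse. Arpc4 in NK cells was 180.1, 164, 134 and 236 CPM in control mice 1 to 4 and 198, 202, 150.3 and 143 CPM in Arpc4dCx3cr1 mice 1 to 4, from 86 UMIs in all. The groups overlapped, and the log2 fold change was -0.07 (SE 0.34, edgeR adjusted p = 0.917). In other cells Arpc4 was 219 to 233 CPM in control and 134 to 159.7 CPM in Arpc4dCx3cr1 mice (log2 -0.54, SE 0.07, adjusted p = 0.000198). The difference of the 2 effects was 0.62 on the log2 scale (SE 0.25, adjusted p = 0.618) and did not pass. Reads at the 3′ end need not lie in the deleted part of Arpc4, and Arpc4 overlaps Ttll3 on the same strand. Of the 7 Arp2/3 subunits tested by genotype in NK cells, 0 passed with edgeR or DESeq2 and 0 had an unadjusted p under 0.05.

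By genotype, 49 of 879 genes passed in NK cells (5.57%), 5 higher (0.569%) and 44 lower (5.01%) in Arpc4dCx3cr1 mice. The mice of the genotypes did not overlap in CPM for 108 genes (12.3%), and 47 of these passed (5.35%). Fewer genes passed without 1 mouse, with 13 without control mouse 2, 23 without control mouse 4, and 17, 31 and 13 without Arpc4dCx3cr1 mouse 1, 2 and 3. Microglia genes were among those that fell. P2ry12, a purinergic receptor of microglia, was 1261, 1287, 929 and 669.9 CPM in NK cells of control mice and 132, 221, 238 and 208 CPM in those of Arpc4dCx3cr1 mice (log2 -2.38, SE 0.29, edgeR adjusted p = 6e-05). Csmd3 was 659.9 to 2711 CPM in control and 16.5 to 37.6 CPM in Arpc4dCx3cr1 mice (log2 -5.93, SE 0.49). Neither gene overlapped between the groups. Tmem119, Siglech, Csf1r and Cst3 fell as well, which makes 5 of the 16 microglia markers with P2ry12, and the median log2 change of all 16 was -0.63. P2ry12 and Csmd3 passed without each mouse, whereas Tmem119, Siglech and Csf1r lost their calls when single mice, 4, 5 and 6 of the 8, were left out (adjusted p up to 0.0825), and Cst3 lost its call whichever of the 8 was left out (up to 0.149).

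In other cells of the same 8 mice 39.0% of 13172 genes passed (19.9% higher, 19.1% lower). Of the 49 genes called in NK cells 48 were tested in other cells, and 44 passed there with the same sign. There P2ry12 was 2451 to 2622 CPM in control and 451 to 889.9 CPM in Arpc4dCx3cr1 mice, and Csmd3 2251 to 3075 CPM and 54.7 to 244 CPM. Droplets with at most 100 UMIs held 1102 CPM of P2ry12 and 569 CPM of Csmd3. In the 42 cells with at least 2 NK genes and few microglia transcripts, P2ry12 had 8 UMIs in control and 1 in Arpc4dCx3cr1 mice. In those cells 0 of 261 genes passed with edgeR (0.00%) and 8 had an unadjusted p under 0.05, but only 4 of the 49 genes were high enough to be tested there. With at least 2 NK genes but no limit on microglia transcripts, 48 of 698 genes passed (6.88%), including 35 of the 38 of the 49 that were tested. The part of microglia RNA in the genotype calls was not tested beyond these values.

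The 5 genes that rose were Trps1 (log2 2.29, SE 0.57), Apobec1 (1.46, SE 0.38), Gm26740 (1.23), Fth1 (0.95, SE 0.24) and Rpsa (0.74, SE 0.20). Trps1 was 0 to 78.8 CPM in control and 176 to 202 CPM in Arpc4dCx3cr1 NK cells, and 49.7 to 79.3 CPM and 519.8 to 666 CPM in other cells. Each of the 5 lost its call for at least 4 of the 8 mice when that mouse was left out, with adjusted p up to 0.172. Fth1 turned to -0.56 in the 42 cells with few microglia transcripts.

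Of 5 Ly49 genes tested by genotype, 1 passed. Klra9, a Ly49 receptor gene, was 500.3, 329, 526 and 217 CPM in control and 198, 110.4, 125 and 187 CPM in Arpc4dCx3cr1 NK cells, with no overlap (log2 -1.38, SE 0.33, edgeR adjusted p = 0.0183). Klra9 is nearly absent from other cells, with 2 UMIs in all. In cells with at least 2 NK genes its log2 change was -1.01 and its adjusted p 0.106, and it did not pass without control mouse 2 or 3 or Arpc4dCx3cr1 mouse 2 or 3 (0.051 to 0.0843). Over all alternatives its adjusted p ranged from 0.00451 to 0.997. Gzma (log2 0.54, SE 0.31, adjusted p = 0.368), Ccl5 (0.29, SE 0.40) and Nkg7 (0.088, SE 0.26) did not pass. Ccl5 turned to -0.17 without Arpc4dCx3cr1 mouse 3 and Nkg7 to -0.23. Of 7 tested granule genes, 5 transcription factors and 18 actin regulators, 0 passed with edgeR or DESeq2, with 0, 2 (Irf8, Zeb2) and 3 (Dock8, Lcp1, Wasf2) at an unadjusted p under 0.05.

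For 4 genes that fell in NK cells, the test in other cells did not pass. That alone does not show that the effects differ, and of the 4 only Aftph passed the main interaction test given below. Aftph, a gene of endosomal trafficking, was 220.1, 219, 208 and 236 CPM in control and 66.0, 18.4, 37.6 and 98.7 CPM in Arpc4dCx3cr1 NK cells (log2 -1.90, SE 0.44, edgeR adjusted p = 0.0164). In other cells it was 231 to 258 CPM and 215 to 282 CPM. Plcl1 (log2 -1.19, SE 0.26), Inpp4b (-1.36, SE 0.27) and Dock4 (-1.15, SE 0.31) also fell, with log2 changes of -0.0040, -0.20 and -0.10 in other cells. Aftph did not pass without control mouse 2, 3 or 4 or Arpc4dCx3cr1 mouse 1 or 3 (adjusted p up to 0.0817), nor Plcl1 without control mouse 2 (0.051), nor Dock4 without control mouse 2 or 4 or Arpc4dCx3cr1 mouse 1, 2 or 3 (up to 0.175). These 4 genes were singled out after their values were seen. In cells with at least 2 NK genes the log2 changes were -2.57 for Aftph, -1.77 for Plcl1, -1.72 for Inpp4b and -1.83 for Dock4, all past the threshold. In the 42 cells with few microglia transcripts Aftph had 9 UMIs in control and 3 in Arpc4dCx3cr1 mice, too few for the test.

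**Figure D5:**
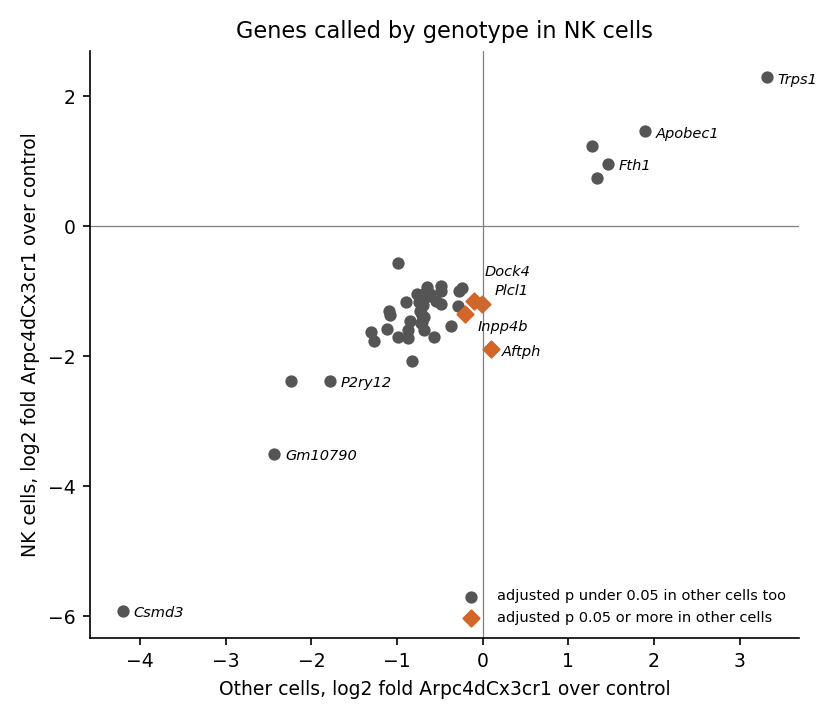
Each point is a gene past the threshold by genotype in NK cells and tested in other cells, with the log2 fold change Arpc4dCx3cr1 over control in other cells on x and in NK cells on y. Csmd3 lies far down in both, and the diamonds mark Aftph, Inpp4b, Plcl1 and Dock4, which fell in NK cells and lie near 0 on x. Of these, only Aftph passed the main test of a difference between the effects in NK and other cells.

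Whether the genotype effect itself differed between NK and other cells was tested as an interaction. Of 11371 genes 10 passed (0.0879%), 3 with a more positive effect in NK cells (0.0264%) and 7 with a more negative one (0.0616%). Without control mouse 3, 4 genes passed, and without Arpc4dCx3cr1 mouse 1, 18. With the mouse as a block, which fits sums that come from the same mice, 49 genes passed, all 10 among them. H2-K1, an MHC class I gene, was 361 to 429 CPM in control and 1059 to 1439.7 CPM in Arpc4dCx3cr1 other cells, and 1643 to 1990.0 and 1519 to 2539 CPM in NK cells (interaction log2 -1.54, SE 0.21, edgeR adjusted p = 0.00098). The NK values of H2-K1 overlapped between genotypes and those of other cells did not. H2-D1 and H2-Q7, also MHC class I genes, had differences of -1.40 (SE 0.23) and -3.19 (SE 0.46). H2-D1 did not pass without control mouse 1 or 3 or Arpc4dCx3cr1 mouse 3 or 4, nor H2-Q7 without control mouse 3 (adjusted p up to 0.107).

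The common cytokine receptor chain Il2rg was 6.72 to 9.34 CPM in control and 34.9 to 43.1 CPM in Arpc4dCx3cr1 other cells and 109.5 to 220.0 and 125 to 202 CPM in NK cells (interaction log2 -2.30, SE 0.33), and without control mouse 3 its adjusted p was 0.107. AW112010 had -1.51 (SE 0.27), which no longer passed in cells with at least 2 NK genes (log2 -1.23, edgeR adjusted p = 0.0758) nor without control mouse 2 or 3 or Arpc4dCx3cr1 mouse 2 or 4. The lymphocyte GTPase genes Gimap1, Gimap6 and Gimap9 were the 3 with a positive difference, at 3.50, 3.60 and 3.63. Gimap6 was 24.1 to 27.9 CPM in control and 1.44 to 3.58 CPM in Arpc4dCx3cr1 other cells, and 180.1 to 318 and 132 to 405 CPM in NK cells. Aftph, which fell in NK cells, had an interaction of -1.85 (SE 0.36, adjusted p = 0.0479) that passed without Arpc4dCx3cr1 mouse 4 but not without any other mouse.

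Klrb1a had the interaction of largest size, -5.87 (SE 1.01, edgeR adjusted p = 0.0127). It was 80.0, 137, 147 and 197 CPM in control and 66.0, 73.6, 62.6 and 76.8 CPM in Arpc4dCx3cr1 NK cells, and 0 to 0.583 CPM and 0.798 to 7.62 CPM in other cells. Klrb1a did not pass without control mouse 2, 3 or 4 or Arpc4dCx3cr1 mouse 2, 3 or 4 (adjusted p up to 0.173). The control level in other cells rests on few UMIs, and like Klrb1b and Klrb1c the gene lies in a group of near-identical neighbours.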

How the data were processed

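The authors aligned 10x 3′ reads to mm10 and deposited UMI counts per gene and multiplexing tag for each of 8 mice (4 control, 4 Arpc4dCx3cr1), with no normalization. The deposited notes name Cell Ranger 6.1.2, while the file headers name another version. The tables held 32285 genes, 12 tags and 19864 cells, all with at least 500 gene UMIs. The study's later filters on mitochondrial reads, free RNA and the female mouse were not applied here, and no doublet caller was run. Some genes are not reported here.

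UMIs were summed per mouse and class, genes of low counts were removed with filterByExpr, and sums were tested in R 4.3.3 with edgeR 4.0.16 (TMM, quasi-likelihood test, Benjamini-Hochberg over all genes tested, threshold 0.05). A mouse with under 5 cells of a class was left out of a fit of that class. The limit was 3 cells where NK and T cells, or NK cells with at least 2 NK genes, were limited to few microglia transcripts, and in the genotype and interaction fits with at least 2 NK genes. All 8 mice entered the main fits. Without NK cells high in microglia transcripts, NK sums of 1 control and 3 Arpc4dCx3cr1 mice remained, and the T and other cells were not limited. Arpc4dCx3cr1 mouse 1 was too small for the fits against T and other cells with at least 2 NK genes and for all fits with at least 3 NK UMIs. DESeq2 1.42.0, other size factors, no filter, leaving out each mouse, other cell rules and a mouse block were alternatives. In the genotype fit the block was the mouse number. Shares were compared with exact permutation tests. The script was tested on simulated data.

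NK, T and other sums of the same mouse are paired by the animal, and correlations of their deviations ran from -0.0139 to 0.161 for NK and T cells and from -0.00278 to 0.109 for NK and other cells. Members, gene lists, motifs and tests were chosen with earlier results of these data known. Named genes are the rule's genes and Gzma, the Arp2/3 subunits, up to 4 list members per direction past the threshold together with the members that define a list, and the 10 largest rises and falls whose mice do not overlap; further genes of the lists were named after their values were seen. The rule with at least 2 NK genes, the Gzma split, the Klrb1c counts outside the rule and the limits on microglia transcripts together with it were chosen after seeing the data. CPM divide a gene's UMIs by all gene UMIs of a class in a mouse. Mice are the replicates and were prepared on the same day.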

Additional observations from a re-analysis of the deposited data

Results flagged for a closer look

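In 92 groups of 4 mice, the mouse farthest from the others was looked for among the named genes in NK cells, and about 1 group in 20 is marked by chance. Trps1 was 175.5 CPM in Arpc4dCx3cr1 mouse 4 against 198 to 202 in the other 3. Nav2 was 1123 CPM in control mouse 2 against 591 to 660.4. Inpp4b was 465 CPM in that mouse against 820.4 to 868. Arpc4dCx3cr1 mouse 4 also stood apart for Cx3cr1 (1492 CPM, others 825 to 889) and Siglech (449.8 CPM, others 182 to 188). H2-Q7 was 662 CPM in Arpc4dCx3cr1 mouse 2 against 300.6 to 347.

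The genotype effect in NK cells differed from that in other cells for 10 genes by the interaction term. The differences were 3.63 for Gimap9, 3.60 for Gimap6, 3.50 for Gimap1, -1.40 for H2-D1, -1.51 for AW112010, -1.54 for H2-K1, -1.85 for Aftph, -2.30 for Il2rg, -3.19 for H2-Q7 and -5.87 for Klrb1a on the log2 scale.

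The pooled table held 7036 barcodes with at least 500 gene UMIs that were given to no mouse, and 79 of them passed the NK rule. At least 2 of the 4 NK genes were found in 74 of the 79, Nkg7 in 73 and Gzma in 44, and 206 barcodes without a mouse were Cd3-positive. They entered no comparison, because their genotype is unknown.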

How the results depend on the processing

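The share of NK cells among all cells (0.131 percentage points) kept its sign under every alternative run. It was 0.0206 points after thinning (exact permutation p = 0.771), 0.0260 with at least 3 NK UMIs (exact permutation p = 0.971) and 0.0258 with at least 2 NK genes. Without each mouse it was 0.0824 to 0.193. No test of it passed, but with 1 mouse left out this test cannot reach the threshold for either share. The share among NK and T cells (3.41 points) turned to -0.574 with at least 3 NK UMIs, -1.51 after thinning and -0.952 with at least 2 NK genes, and ranged from -2.20 to 8.72 without each mouse; no test of it passed. For genes NK against T cells the count (85) was 302 without the filter, 430 without NK cells high in microglia transcripts, 39 with both classes low in them, 53 with at least 2 NK genes, and 50 to 119 without each mouse (lowest without Arpc4dCx3cr1 mouse 4, highest without Arpc4dCx3cr1 mouse 2). For genes NK against other cells the direction with more genes turned with DESeq2 (1175 higher, 1013 lower), and the count was 2107 to 2600 without each mouse. The genotype count (49) was 90 without the filter, 0 with at least 2 NK genes and few microglia transcripts, and 13 to 47 without each mouse, with 13 without control mouse 2 or Arpc4dCx3cr1 mouse 3. The interaction count (10) was 26 without the filter, 52 with DESeq2, 49 with the mouse as a block, and 4 to 18 without each mouse (18 without Arpc4dCx3cr1 mouse 1, 4 without control mouse 3). Arpc4 in NK cells was 0.12 without the filter and -0.23 to 0.11 without each mouse, with 0.04 without Arpc4dCx3cr1 mouse 4.

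Without NK cells high in microglia transcripts, Cd226 (0.081) and Zeb2 (-1.22) turned against T cells. So did Actr3 (-0.18) and Egr1 (-10.22) against other cells. The T and other cells were not limited there. Among NK cells with at least 2 NK genes, Egr1 had 3 UMIs in 1 of 30 cells without Gzma. It had 16 UMIs in 2 of 33 with high Gzma, so the size of its value says little. Fth1 turned to -0.56 by genotype in the cells with few microglia transcripts. The genotype fit without NK cells high in microglia transcripts kept 1 control and 3 Arpc4dCx3cr1 mice, with the lone control assumed to vary like the others. It gave a count of 1 and 1.32 for Cst3, values that say little about stability. By genotype, leaving out each mouse gave -0.17 to 0.74 for Ccl5 and -0.23 to 0.27 for Nkg7, neither past the threshold. With the mouse as a block the counts were 70 for genes NK against T cells and 2185 for genes NK against other cells. With the mouse number as a block the count was 66 for genes by genotype in NK cells, and Arpc4 was -0.09. Mouse numbers correlated across genotypes at 0.120, 0.120, 0.0610 and 0.119, not all over 0.1, and 3 of 4 mice correlated best with their own number. These values cannot decide whether mice of the same number share more than the number. The cause of these shifts was not tested. With 6 to 15 NK cells per mouse, genes of low level could not be tested.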
